A study of Mus musculus with 24 samples.

Results

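The genes described here were 6 genes of the Hoxa cluster (Hoxa5, Hoxa6, Hoxa7, Hoxa9, Hoxa10 and Hoxa11) and the genes of their TALE homeobox partners Meis1 and Pbx3. They were taken by name, 8 of the 22371 genes in the RNA-seq tables, together with every listed peak and methylation region within 50 kb of their spans. The cells were mouse bone marrow cells immortalized with HOXA9 and carrying an IDH1 R132H vector, either untreated or given vitamin C to 0.345 mM at 0, 24 and 48 h and harvested at 72 h. All were grown with IL-3 at 6 ng/ml, IL-6 at 10 ng/ml and SCF at 20 ng/ml. HOXA9 cells with an IDH1 wild-type vector, untreated, entered through 1 list of MeDIP-seq regions. Each of the 24 samples was a group of 1 library, so the values below compare single libraries, and no test between conditions was made. The sources used here give neither the harvest time of the untreated cells nor whether a culture was 1 clone or a pool.

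Hox genes encode homeodomain transcription factors that lie in clusters. In blood, the Hoxa genes, and Hoxa9 above all, are active in stem and progenitor cells and fall silent as myeloid cells mature. HOXA9 binds DNA together with TALE homeodomain proteins: PBX proteins raise its affinity for DNA, and MEIS1 joins the same complexes and speeds leukaemia driven by HOXA9. Chromatin at these genes is opened by MLL (Kmt2a) with menin and DOT1L, and closed by Polycomb complexes. In these cells HOXA9 was itself supplied, so reads assigned to Hoxa9, in RNA and in ChIP, can come from the supplied copy as well as from the chromosome, and the 2 sources were not separated.

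Promoter sequences of 7 of the 8 members were in the RefSeq table used here (GRCm38.p6, the same assembly as mm10), each 250 bases before to 50 bases after an annotated start. Pbx3 was the other member. Those of Hoxa9, Hoxa10 and Meis1 are printed 5′ to 3′ (minus strand) because the results below turn on them, with every CG dinucleotide, the site of methylation, in capitals. The first is that of Hoxa9 at chr6:52227321-52227620, the member with the most RNA. The second is the upstream Hoxa10 promoter at chr6:52240805-52241104, which lay under a WGBS region. The last is that of Meis1 at chr11:19018920-19019219, which lay within wide histone peaks.
Hoxa9: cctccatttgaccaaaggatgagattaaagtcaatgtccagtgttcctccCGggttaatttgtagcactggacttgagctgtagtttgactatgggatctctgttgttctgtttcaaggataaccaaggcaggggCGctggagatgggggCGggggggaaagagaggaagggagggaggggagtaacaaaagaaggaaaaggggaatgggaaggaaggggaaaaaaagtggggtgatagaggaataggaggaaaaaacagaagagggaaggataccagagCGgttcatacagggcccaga
Hoxa10: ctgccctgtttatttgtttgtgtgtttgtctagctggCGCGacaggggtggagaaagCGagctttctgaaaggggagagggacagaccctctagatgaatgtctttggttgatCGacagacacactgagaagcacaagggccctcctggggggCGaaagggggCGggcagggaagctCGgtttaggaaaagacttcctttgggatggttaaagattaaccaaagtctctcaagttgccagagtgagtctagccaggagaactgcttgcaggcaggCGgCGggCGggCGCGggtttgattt
Meis1: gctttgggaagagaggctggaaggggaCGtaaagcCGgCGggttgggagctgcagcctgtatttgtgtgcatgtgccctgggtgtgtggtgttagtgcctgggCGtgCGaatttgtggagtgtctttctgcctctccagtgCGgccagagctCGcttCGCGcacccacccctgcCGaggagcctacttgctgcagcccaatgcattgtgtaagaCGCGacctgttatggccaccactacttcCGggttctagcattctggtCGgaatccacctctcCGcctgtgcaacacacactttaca

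The Hoxa9 promoter held 4 CG dinucleotides, the upstream Hoxa10 promoter 12 and the Meis1 promoter 15, beside a median of 7 over the 32851 promoters of the table. The motifs searched, on both strands, were GAGGAAGT (PU.1), GGAA (the ETS core, which the first contains), TGTGGT (RUNX), TGATTTAT (HOX with PBX), TGACAG (MEIS), CCAAT and TATAAA. The Hoxa9 promoter held 11 copies of GGAA, which occurs in 96.0% of all promoters of the table, and no copy of the others. The Meis1 promoter held 1 TGTGGT (in 16.8% of promoters), 1 CCAAT (in 37.4%) and 4 copies of GGAA. The downstream Hoxa10 promoter, at chr6:52234890-52235189, held 1 CCAAT and 1 TATAAA (in 13.6%). Neither the PU.1 letters nor those for HOX with PBX or for MEIS, found in 3.20%, 0.977% and 19.2% of promoters, were in any of the 8 promoter entries of the members.

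RNA of the members was measured as a read count and as RPKM, reads scaled to gene length and to the reads of the library. The tables summed to 86804487 reads untreated and 111453443 with vitamin C, so that 3 reads, the floor used where a gene had 0, were 0.0346 and 0.0269 CPM (counts scaled to library size). Changes are given as a ratio of RPKM with an exact 95% binomial interval, and as log2 of vitamin C over untreated after adding 0.5 RPKM to both, which understates the change of low genes. The intervals and the floor cover counting error only. With bulk RNA, fewer cells of a type and less RNA per cell cannot be told apart.

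Within the Hoxa cluster the RNA came almost entirely from Hoxa9, and it was about 2-fold lower in the vitamin C library. Hoxa9 (ENSMUSG00000038227, chr6:52223097-52227370) had 777492 reads and 3062 RPKM untreated and 482671 reads and 1487 RPKM with vitamin C. The ratio was 0.486 (0.484 to 0.488), 2.06-fold lower, a log2 change of −1.04. Hoxa9 was the gene with the second highest RPKM of the untreated library, after Eef1a1, a translation elongation factor gene at 5165 RPKM, and took 0.896% of all reads. With vitamin C it ranked 11 and took 0.433%.

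The other 5 Hoxa members were at or near 0 in both libraries. Hoxa5, Hoxa7, Hoxa10 and Hoxa11 had 0 reads in each, below the floor of 3 reads. Hoxa6 had 4 reads untreated (0.0273 RPKM) and 0 with vitamin C, too few to compare. The silent members lie on both sides of Hoxa9, with Hoxa7 to its left and Hoxa10 to its right on the map.

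Meis1, which encodes the TALE cofactor that accelerates HOXA9 leukaemia in mice, was lower in the vitamin C library by less than 2-fold. Meis1 (ENSMUSG00000020160, chr11:18880428-19019651) had 12590 reads and 18.3 RPKM untreated and 8835 reads and 10.05 RPKM with vitamin C. Its ratio was 0.549 (0.534 to 0.564), and its log2 change −0.83. Pbx3 (ENSMUSG00000038718, chr2:34171457-34372045), a PBX protein that stabilises HOXA9 and MEIS1 on DNA, had 2165 reads and 4.46 RPKM untreated and 2831 reads and 4.56 RPKM with vitamin C. Its ratio of 1.02 had an interval of 0.967 to 1.08 that includes 1. Ordered by RPKM, the members ran Hoxa9, Meis1, Pbx3 in both libraries.

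Of the 8 members, 3 reached 1 RPKM in 1 or both libraries. Of those, 1 (Hoxa9) was 2-fold or more lower, beside 1.92% of all 10436 genes that reached that level, and 0 were 2-fold or more higher, beside 2.38%. Hoxa9 lay so close to 2-fold that centring all genes on their median, −0.04, placed it at −0.998 and left 0 members past the threshold. Of all genes tested, 1.74% had a log2 change at or below that of Hoxa9, 2.89% at or below that of Meis1 and 58.9% at or below that of Pbx3. None of the 8 was in the authors' deposited list of 221 lower genes or in their list of 450 higher genes.

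**Figure D1:**
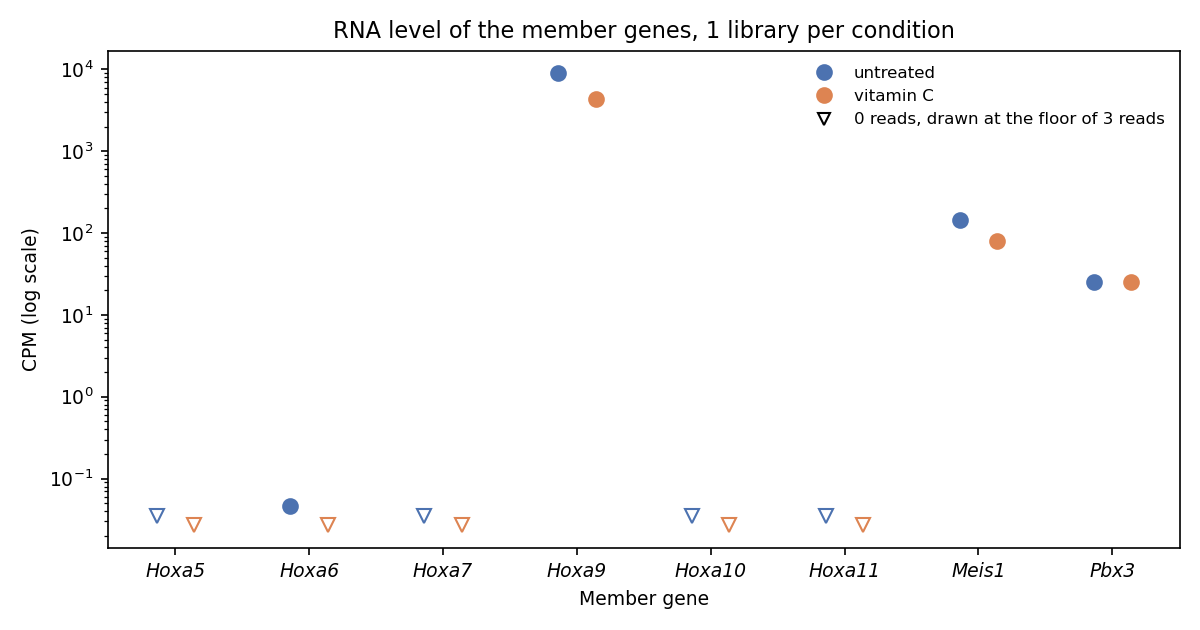
CPM, counts scaled to library size (log axis), of each member gene in the untreated and the vitamin C library, 1 point per library. Open triangles mark 0 reads and are drawn at the floor of 3 reads. Hoxa9, Meis1 and Pbx3 stand above the rest, while 4 Hoxa genes had 0 reads in both libraries.

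A fall of this size was uncommon among abundant genes. Among the 771 most abundant genes, those reaching 100 RPKM untreated or with vitamin C, 6 (0.778%) fell below the same 2-fold line: Hpgd, Mpo, Wfdc17, Prtn3, Lyz2 and Hoxa9. By distance in log2 change over these 2 libraries, the genes nearest to Hoxa9 were Lyz2, the lysozyme gene of myeloid cells, at 111 and 53.0 RPKM (log2 change −1.06), Gm2000 (−0.92) and Gm10036 (−0.90). The other genes among the 5 highest of the untreated library were Eef1a1, Eef2 and Gm10073 and Ctsg, the cathepsin G gene of primary granules, which was at 2101 and 1136 RPKM. The 5 highest with vitamin C were Eef1a1, Cpa3 (2488 RPKM), Eef2 (2169 RPKM), Actb (1902 RPKM) and Hsp90ab1 (1825 RPKM).

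**Figure D2:**
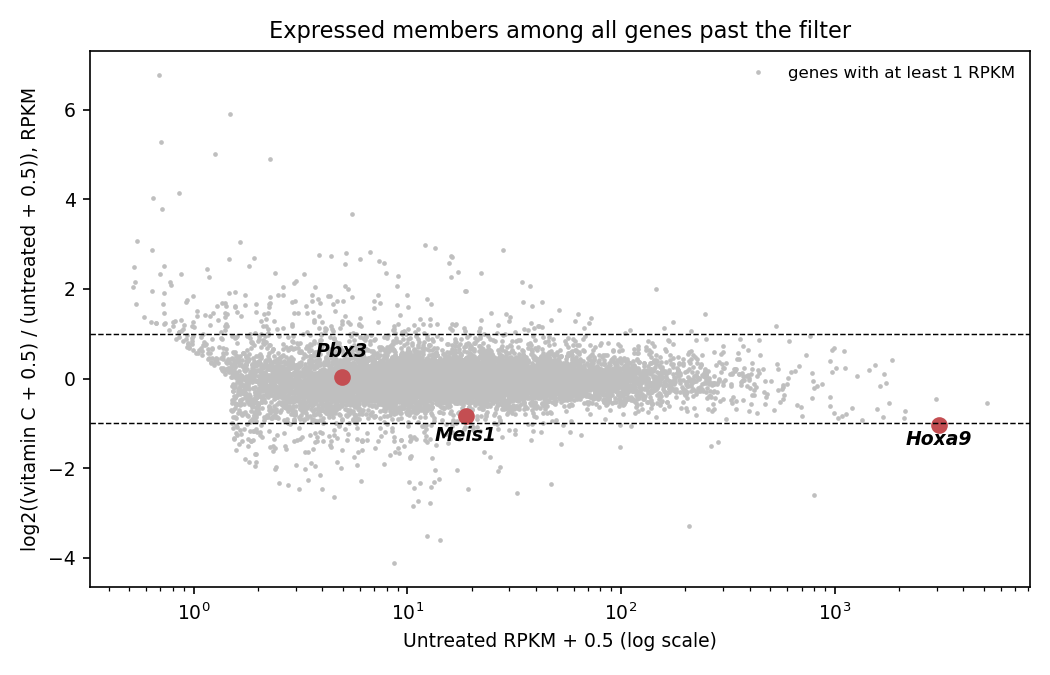
Log2 change of RPKM plus 0.5 (vitamin C over untreated) against untreated RPKM plus 0.5 (log axis) for the 10436 genes with at least 1 RPKM, with dashed lines at 2-fold. Hoxa9 lies at the lower line at the far right, Meis1 lies above it at −0.83, and Pbx3 lies near 0.

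Marker lists moved in the same libraries, in which 1.92% of all genes tested were 2-fold or more lower and 2.38% were 2-fold or more higher. Markers of myeloid progenitors were detected in 8 of 8 cases, and their summed level went from 3863 to 2159 RPKM. Of the 8, 7 were lower, 3 of them 2-fold or more, and Cd34 was higher, at 298.5 and 498 RPKM. Ctsg (2101 and 1136 RPKM) and Mpo (796 and 131 RPKM) held most of the untreated sum. Of the 5 monocyte and macrophage markers, 4 were tested and all 4 were higher, with a summed level of 216 and 451 RPKM. The 2 that were 2-fold or more higher were Cd68 (34.3 and 113.6 RPKM) and Cd14 (16.3 and 38.0 RPKM). Adgre1 stood at 165 and 298 RPKM, and Csf1r at 0.874 and 1.35 RPKM. The 5 mast cell and basophil markers were all higher and summed to 2021 and 2709 RPKM. Of them, 2 were 2-fold or more higher, Ms4a2 (119 and 709 reads) and Cma1 (28 and 1458 reads). Cma1 passed the filter only with vitamin C. Most of the sum of these 5 was Cpa3, at 1863 and 2488 RPKM. The 4 erythroid markers summed to 340 and 384 RPKM, nearly all of it Hbb-bs, and of the 2 that were tested 1 was 2-fold or more higher. That was Hba-a1, at 0.136 and 4.12 RPKM (8 and 311 reads), which passed the filter only with vitamin C. Klf1 had 31 and 19 reads. No B cell, T cell or fibroblast marker reached 1 RPKM, and Pax5, Cd3e and Dcn were at 0 in both libraries. The part of these cell type markers in the levels of Hoxa9 and Meis1 was not tested.

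Genes of the other Hox clusters were close to silent. Of 38 Hox genes in the table, 28 had 0 reads in both libraries, and only Hoxa9 and Hoxc6 reached 1 RPKM. Without Hoxa9 the family had 596 reads untreated and 67 with vitamin C. Hoxc6, a gene of the Hoxc cluster, had 206 and 21 reads, 1.13 and 0.0903 RPKM (ratio 0.0798, 0.0483 to 0.125). It reached 1 RPKM only in the untreated library, where it was higher. Hoxb4, known for expanding blood stem cells when overexpressed, had 268 and 32 reads (ratio 0.0933, 0.0626 to 0.135), and its neighbour Hoxb3 had 89 and 6 reads. Hoxb4 and Hoxb3 did not reach 1 RPKM and are named only because their values stood out when seen. All 8 Hoxd genes in the table had 0 reads in both libraries.

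The genes flanking the Hoxa cluster were expressed and were not 2-fold different, beside 1.92% lower and 2.38% higher of all genes tested. Of 10 other cluster and flanking genes, 4 reached 1 RPKM, all of them flanking genes. Skap2, an adaptor protein gene on one side, stood at 74.1 and 73.8 RPKM. Hibadh, Tax1bp1 and Snx10 stood at 60.5 and 62.1, 171 and 214, and 16.1 and 23.7 RPKM. The median log2 change of the 4 was 0.18, beside −0.04 over all genes tested. Hoxa2, Hoxa3, Hoxa4, Hoxa13 and Evx1 had at most 2 reads in either library.

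Other TALE homeobox genes held 5 of 9 genes past 1 RPKM, with a median log2 change of −0.15. That median was 0.117 at a filter of 5 RPKM and −0.007 with no filter. Of the 5 genes, 1 was 2-fold or more lower and 0 were higher, beside 1.92% and 2.38% of all genes tested. Tgif2, a TALE repressor of TGF-beta signalling, had 537 reads and 1.94 RPKM untreated and 42 reads and 0.118 RPKM with vitamin C (ratio 0.0610, 0.0436 to 0.0839). This gene was the 1 past 2-fold, and it passed the filter only through the untreated library, where it was higher. Pbx2 was the most abundant PBX gene, at 33.2 and 36.0 RPKM, above Pbx3 in both libraries. Pbx4 stood at 3.19 and 2.12 RPKM, Tgif1 at 25.2 and 29.5, and Pknox1, a relative of Meis1, at 12.0 and 10.7. Meis2, a close relative of Meis1, had 2 and 1 reads.

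Regulators of Hox chromatin showed no 2-fold difference in either direction, beside 1.92% lower and 2.38% higher of all genes tested. At those shares, few or none in lists of this size would be past 2-fold. Of 23 activators of Hox loci, 20 passed the filter, with a median log2 change of −0.12. Kmt2a, which encodes MLL, stood at 14.8 and 10.00 RPKM, and Ash1l, an H3K36 methyltransferase that acts at Hox genes, at 10.5 and 7.03. Dpy30, a subunit of MLL complexes, stood at 49.8 and 75.7 RPKM and Mllt6 at 16.2 and 23.1. Wdr5 stood at 54.5 and 49.9, and Men1, which encodes menin, at 44.8 and 44.7. The caudal genes Cdx1, Cdx2 and Cdx4 were the 3 that failed the filter, with 0 reads in both libraries.

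All 29 Polycomb genes passed the filter, and their median log2 change was −0.16. The greatest differences were in Cbx6 (28.7 and 16.5 RPKM), Cbx2 (8.44 and 4.92 RPKM) and Phf19 (9.89 and 6.31 RPKM), which were lower with vitamin C, and in Phf1 (7.97 and 13.1 RPKM), which was higher. Cbx proteins read H3K27 methylation for one Polycomb complex, and the Phf proteins are accessory to the other. Rbbp7 and Bap1, among the most abundant, stood at 90.4 and 119 RPKM and at 47.0 and 42.2 RPKM.

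All 15 genes listed as partners of HOXA9 were expressed, with a median log2 change of −0.14 and none past 2-fold. Whether their proteins share DNA sites with HOXA9 in these cells was not examined. Over all genes tested 1.92% were past it lower and 2.38% higher, so few or none of 15 would be. Cebpa, a myeloid factor needed by HOXA9 leukaemia cells, stood at 198 and 161 RPKM, and Spi1, which encodes PU.1, at 105 and 83.0. Kmt2c and Kmt2d, the H3K4 methyltransferases of enhancers, stood at 8.70 and 5.12 and at 27.6 and 20.6 RPKM. Smarca4, the ATPase of a chromatin remodelling complex, stood at 88.8 and 68.4 RPKM.

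Of 20 genes reported downstream of HOXA9 and MEIS1, 17 passed the filter, with a median log2 change of −0.22. Of these, 2 were 2-fold or more lower and 1 was 2-fold or more higher, beside 1.92% and 2.38% of all genes tested. Hlf, a stem cell transcription factor gene, stood at 17.0 and 6.38 RPKM (ratio 0.374, 0.360 to 0.389). Flt3, a receptor of early progenitors and a known target of HOXA9 and MEIS1, stood at 6.97 and 2.95 RPKM (ratio 0.424, 0.402 to 0.447). Id2, an inhibitor of helix-loop-helix factors, stood at 1.79 and 6.90 RPKM (3.86-fold higher, 3.27 to 4.60). Sox4 (38.8 and 21.5 RPKM) and Cd34 (298.5 and 498 RPKM) went in opposite directions within 2-fold, and Myc stood at 251 and 203 RPKM.

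Chromatin at the members was described from peaks listed per library for H3K4me1 (a mark of enhancers), H3K4me3 (of active promoters), H3K27ac (of active promoters and enhancers) and the myeloid factors PU.1 and Runx1. The windows of the Hoxa members overlap and were joined to 1 window of 144.1 kb, beside 239.2 kb for Meis1 and 300.6 kb for Pbx3. A peak was called shared when a peak of the other library overlapped it by 1 bp or more. The depth of these libraries is unknown. The value of a histone peak is the authors' p-value or q-value and that of a factor peak their score, used here only to rank peaks within a list. Positions are printed as listed, without knowing whether starts count from 0 or 1.

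Most H3K27ac and H3K4me3 peaks of the members' windows had a counterpart in the other library. For H3K27ac, 14 of 14 untreated peaks were shared, beside 86.6% of the whole untreated list, and 14 of 15 with vitamin C, beside 88.8%. For H3K4me3, 27 of 30 untreated peaks were shared, beside 90.5%, and 29 of 32 with vitamin C, beside 85.7%. These shares are near those of all peaks. For H3K4me1, 8 of 25 untreated peaks were shared, beside 41.1%, and 11 of 18 with vitamin C, beside 57.5%. The untreated share of 32.0% was 16.0% when at least 50% of a peak had to overlap. The few Runx1 peaks of the windows were shared in 2 of 2 cases untreated, beside 81.8%, and in 2 of 3 with vitamin C, beside 50.7%.

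In the joined Hoxa window, H3K27ac was listed only inside Hoxa9. There were 2 peaks in each library, at chr6:52223965-52224530 and chr6:52225524-52226219 untreated and at chr6:52223946-52224542 and chr6:52225479-52226254 with vitamin C. The first had a value of 1.13e-183 untreated, rank 1717 of 36953, and 4.09e-167 with vitamin C. H3K4me3 peaks lay over both places in both libraries. The one at chr6:52224025-52224509 in the vitamin C list had a value of 1.57e-130, rank 180 of 48385. No listed peak of any mark overlapped the Hoxa9 promoter printed above, and the nearest H3K27ac peak lay 1151 bp from the start untreated and 1116 bp with vitamin C. Whether these peaks come from the chromosome or from the supplied HOXA9 was not tested.

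H3K4me3 was also listed in the Hoxa window outside Hoxa9. In both libraries peaks lay in Hoxa7, which had 0 reads, and between Hoxa7 and Hoxa9. Others lay at the antisense genes Hoxaas3 and Hoxa11os and at Hottip, a long noncoding RNA gene of the cluster's 5′ end. The RNA of these noncoding genes was not examined. The window held 8 H3K4me3 peaks untreated and 10 with vitamin C. The 1 untreated peak without a partner lay in Hoxa10, and 1 of the 2 with vitamin C lay in Hoxa3. Counted from the strongest peak, these weak peaks ranked at 96.7% and 90.1% of their lists. H3K4me1 was listed 8 times untreated and 6 times with vitamin C, and 4 of each were shared, beside 41.1% and 57.5% of the whole lists.

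No PU.1 or Runx1 peak lay in the Hoxa window of 144.1 kb in either library. Over the genome, Runx1 peaks were listed at 1.44 per Mb untreated and 2.3 per Mb with vitamin C, so few or none would lie in such a window. Listed PU.1 peaks were denser, at 22.6 and 8.64 per Mb. The nearest PU.1 peak lay 57626 bp from the Hoxa11 start untreated and 57722 bp with vitamin C. The nearest Runx1 peak lay 191762 bp from the Hoxa5 start untreated and 191585 bp with vitamin C.

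**Figure D3:**
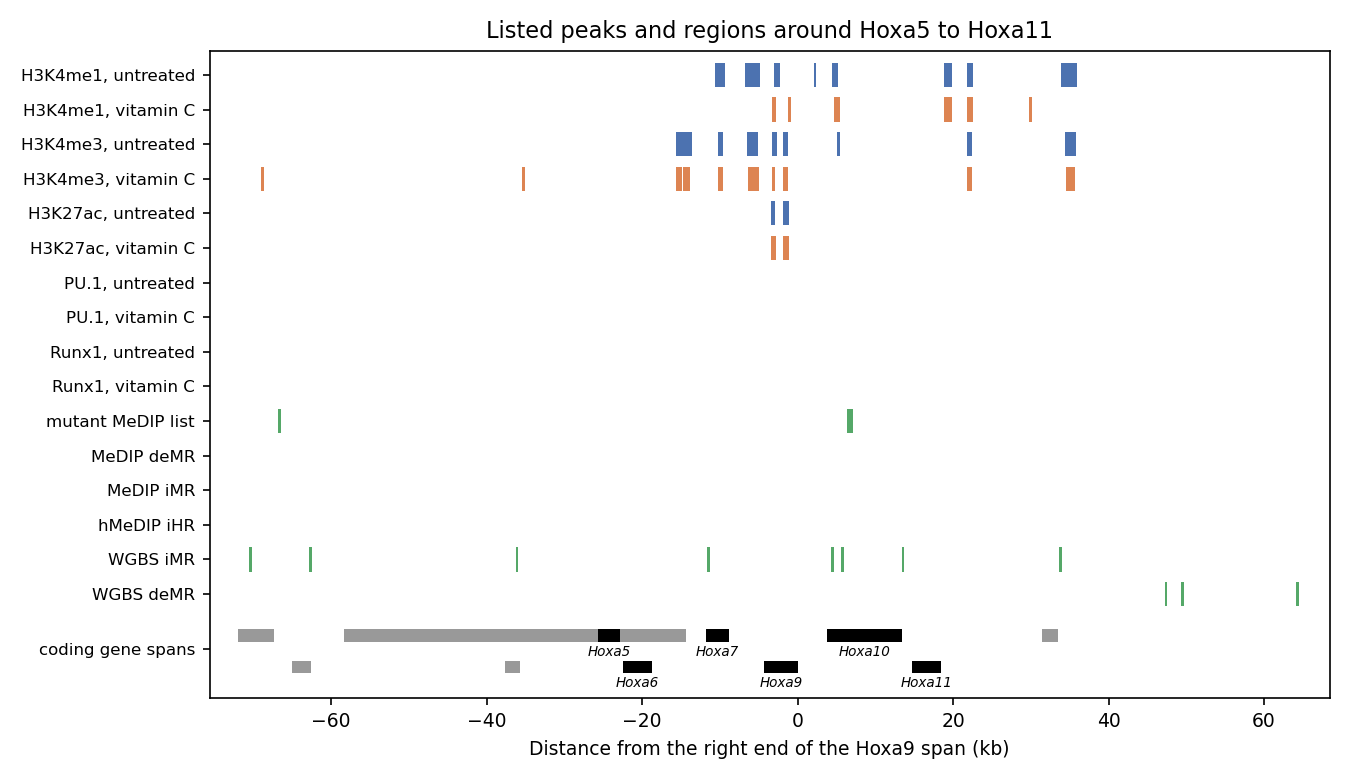
Listed peaks (blue untreated, orange vitamin C) and methylation regions (green) in the joined Hoxa window, by distance in kb from the right end of the Hoxa9 span. Member spans are black, other coding spans grey, and narrow features are widened to stay visible. The 2 H3K27ac peaks of each library lie within Hoxa9, and no PU.1 or Runx1 peak is drawn.

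Meis1 carried among the widest H3K4me3 peaks of the genome in both libraries. Untreated, a peak at chr11:19006181-19020720 spanned 14539 bp, the width ranked 4 of 45713, and with vitamin C a peak at chr11:19007005-19020414 spanned 13409 bp, ranked 6 of 48385. Both included the Meis1 promoter printed above. H3K27ac covered the same stretch, 13879 bp untreated and 13123 bp with vitamin C, ranked 22 by width in each list. By value the H3K27ac peak ranked 3476 of 36953 untreated and 6408 of 35970 with vitamin C. The H3K4me3 peak went the other way, from rank 6220 to rank 4698. Ranks in separate lists do not measure a change. Wide peaks of both marks were thus listed over the start of Meis1 in the library in which its RNA was 0.549 of the untreated level.

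Within the body of Meis1, H3K4me1 was listed over less DNA with vitamin C. Untreated, 1 peak at chr11:18935969-19007175 spanned 71206 bp, ranked 24 of 57750 by width. By value it was weak, at 4.79e-08, rank 43530. With vitamin C the same stretch held 3 peaks, of 318, 2279 and 730 bp, weak as well, with value ranks of 28797, 32278 and 30461 of 45657. All H3K4me1 peaks of the window covered 83.89 kb untreated and 27.62 kb with vitamin C, beside 183200 and 108400 kb over the whole lists. The lowest value among these peaks was 4.79e-08 untreated and 8.33e-08 with vitamin C, so the covered lengths rest on weak peaks. A further H3K4me1 peak of 14890 bp, at chr11:18895188-18910078, was listed only with vitamin C.

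PU.1 was listed at 2 strong places in the body of Meis1 in both libraries. The peak at chr11:18924798-18925473 scored 97.0 untreated, rank 1847 of 61611, and its counterpart with vitamin C scored 85.0, rank 564 of 23522. The peak at chr11:18969719-18970534 scored 105 untreated, rank 1562, and its counterpart scored 75.2, rank 725. PU.1 peaks numbered 5 untreated and 4 with vitamin C, with 3 shared in each, 60.0% beside 36.1% of all untreated PU.1 peaks and 75.0% beside 95.2% with vitamin C. A Runx1 peak, scored 5.54, was listed only with vitamin C at chr11:18925005-18925195, inside the first PU.1 place. H3K27ac peaks lay over that place in both libraries, and over the second only with vitamin C.

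**Figure D4:**
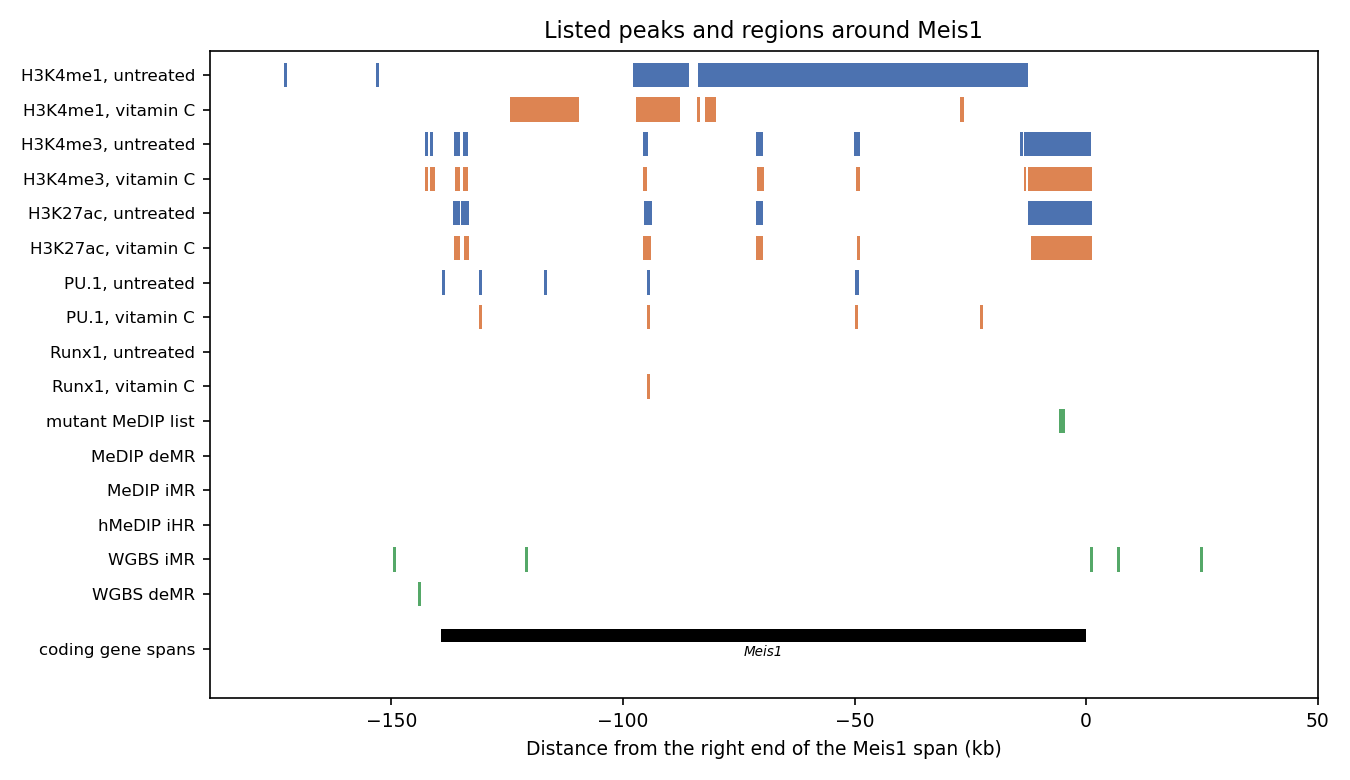
Listed peaks (blue untreated, orange vitamin C) and methylation regions (green) around Meis1, by distance in kb from the right end of its span. The wide H3K4me3 and H3K27ac peaks at the right end are in both libraries. The H3K4me1 peak of 71206 bp in the untreated list is met by shorter peaks with vitamin C.

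Around Pbx3, whose RNA ratio was 1.02, listed PU.1 peaks numbered 11 untreated and 1 with vitamin C. Of the 11, 1 was shared (9.09%), beside 36.1% of all untreated PU.1 peaks. The 1 peak with vitamin C was shared too, as were 95.2% of all PU.1 peaks with vitamin C. Over the genome the density of listed PU.1 peaks was 22.6 per Mb untreated and 8.64 per Mb with vitamin C. The strongest untreated peak, at chr2:34235357-34235819, scored 42.1 and had no counterpart. H3K4me3 was listed over that place in both libraries, at chr2:34235165-34236552 with a value of 4.65e-106 untreated and at chr2:34235136-34236430 with 1.13e-124, rank 373, with vitamin C. H3K27ac was listed there in both as well.

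Runx1 was listed at 2 places of the Pbx3 window in both libraries. The peak at chr2:34372690-34372952, 645 bp from the right end of Pbx3, scored 7.62 untreated, rank 1960 of 3908, and its counterpart with vitamin C scored 49.0, rank 926 of 6250. The other, at the start of the neighbouring gene Mapkap1, scored 6.48 and 29.8. Ranks from lists of unequal length show no change between libraries. H3K4me3 peaks lay on either side of the right end of Pbx3 in both libraries. H3K27ac peaks did so untreated, while 1 peak with vitamin C spanned that end, at chr2:34370479-34373624. The H3K27ac peak with the lowest value of the window lay inside the gene, at chr2:34359178-34360824 untreated and chr2:34359365-34360794 with vitamin C. H3K4me1 peaks numbered 13 untreated and 7 with vitamin C and covered 45.55 and 14.14 kb. The whole lists were smaller with vitamin C too, with 57750 and 45657 peaks over 183200 and 108400 kb. Of the window's peaks, 2 of 13 untreated were shared, beside 41.1% of the list, and 3 of 7 with vitamin C, beside 57.5%.

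**Figure D5:**
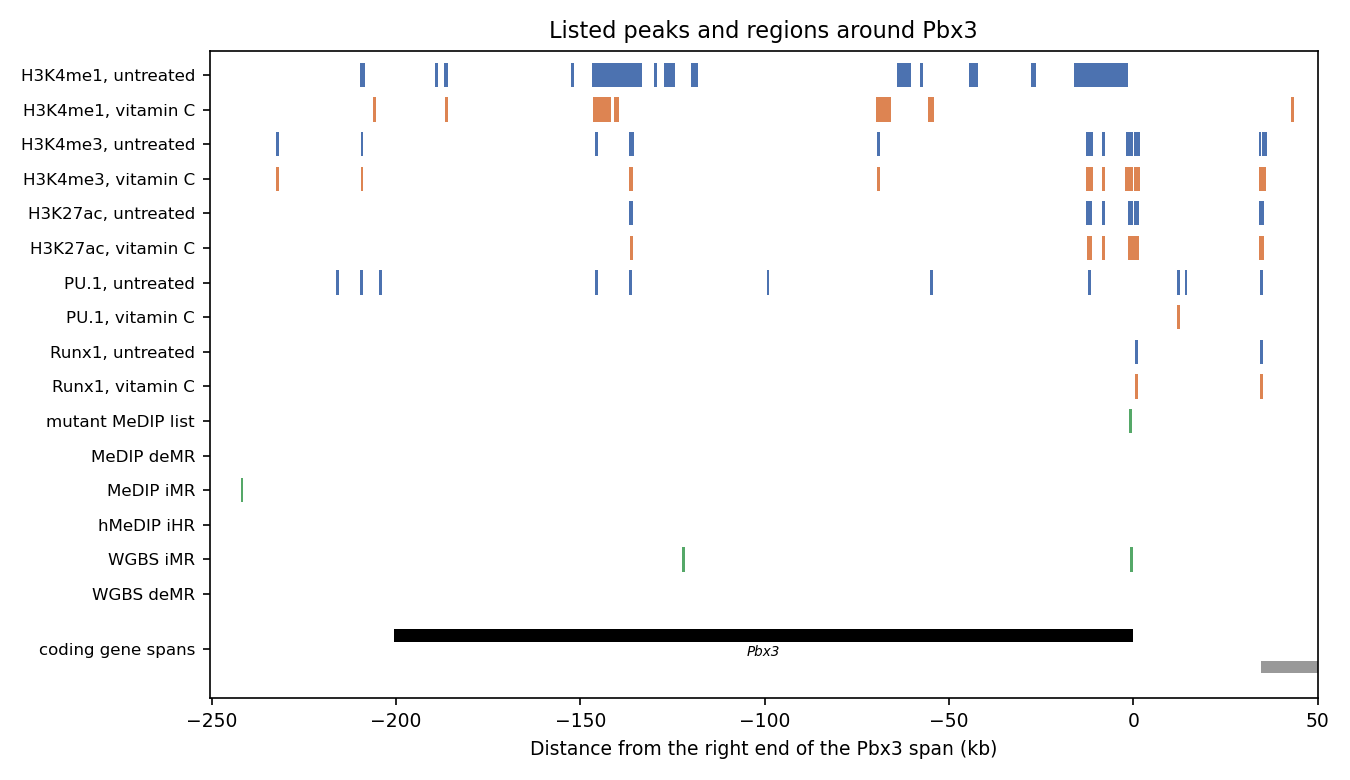
Listed peaks (blue untreated, orange vitamin C) and methylation regions (green) around Pbx3, by distance in kb from the right end of its span. Of 11 untreated PU.1 peaks 1 has a counterpart with vitamin C, and both Runx1 peaks are in both libraries.

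Methylation was read from 6 deposited lists of regions, which hold positions without values. The sources used here state neither the libraries compared nor the direction of a list, so the lists are called by their labels. The list labelled iMR from whole-genome bisulfite sequencing (WGBS), attached to the untreated sample, held 15 regions in the 3 windows, 21.9 per Mb beside 3.08 per Mb over the whole list. In the Hoxa window it held 8, or 55.5 per Mb, with 5 in the Meis1 window and 2 in the Pbx3 window. The list labelled deMR, attached to the vitamin C sample, held 4 in the windows, 5.85 per Mb beside 2.39 per Mb. Of these, 3 lay in the Hoxa window, or 20.8 per Mb, so that window was dense in both lists. The densities over the whole lists were not matched for CG content.

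The iMRs of the Hoxa cluster lay in or beside coding genes that had at most 2 reads in either library, and not in Hoxa9. Hoxa10 held 3, at chr6:52231678-52232047, chr6:52232967-52233396 and chr6:52240814-52241067, and Hoxa7 held 1, at chr6:52215767-52216010. The last of the Hoxa10 regions lay across the upstream Hoxa10 promoter printed above and included 12 of its 12 CG dinucleotides. Others lay in Hoxa2 (chr6:52164666-52164732) and where the spans of Hoxa3 and Hoxa4 overlap (chr6:52191164-52191392). Another, at chr6:52261145-52261176, lay 265 bp from Hoxa13. None of the 8 overlapped an H3K4me3 or H3K27ac peak of either library, and 1, in Hoxa10, overlapped an untreated H3K4me1 peak. Over the whole iMR list 9.24% of regions overlapped an H3K4me3 peak of 1 or both libraries, so few or none of 8 would.

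In the Meis1 window, iMRs lay in the gene at chr11:18898765-18898997, at chr11:19020721-19020962 over the right end of the wide H3K27ac peaks of both libraries and a small H3K4me3 peak with vitamin C, and outside genes or in the noncoding 8430419K02Rik at chr11:19026292-19026887, chr11:19044384-19044656 and chr11:18870205-18870451. The Pbx3 gene held 2, at chr2:34249967-34250003 and chr2:34371439-34371474. The 4 deMRs lay outside coding genes, at chr6:52274749-52274767, chr6:52276731-52276966, chr6:52291564-52291715 and chr11:18875700-18875721, and none overlapped a listed peak.

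A MeDIP-seq list was attached to untreated IDH1 wild-type cells and labelled for the mutant. In the windows it held 4 regions, 5.85 per Mb beside 1.54 per Mb over the whole list. Of these, 3 lay in members: in Hoxa10 (chr6:52233751-52234500), inside the wide histone peaks of Meis1 (chr11:19013751-19015000) and in Pbx3 (chr2:34371001-34371500), where it overlapped the WGBS iMR. The Meis1 region, at 1249 bp, ranked 32 by width of 4182. The MeDIP list labelled iMR held 1 region, at chr2:34130001-34130500, 40957 bp from Pbx3, or 1.46 per Mb beside 1.68 per Mb over that list. The MeDIP list labelled deMR and the hydroxymethylation list, of 3789 and 7829 regions, held 0 in the 3 windows. Over the genome these lists held 1.39 and 2.88 regions per Mb, so few or none would lie in windows of this length.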

How the data were processed

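RNA-seq, ChIP-seq, MeDIP-seq, hMeDIP-seq and WGBS files of 18 of the 24 samples were read, and the other 6 samples were not analysed here. Build mm10 and the tools MACS2 2.1.0.2, Novoalign 3.02.08, BWA, Picard, SAMtools (0.1.16, 0.1.8, 0.1.2) and CASAVA 1.8.2 are listed, without role or order, per the submitters' processing notes. The authors deposited a read count and an RPKM per Ensembl gene; how reads were counted, on which annotation and whether by strand, is not given in the sources used here. Further columns per gene, also in RPKM by their values, were deposited by the authors without names. Histone peaks carry a deposited p-value or q-value of at most 1e-05, and PU.1 and Runx1 peaks a deposited score without a definition. Intervals repeated within a factor list were used once, which dropped 1159 untreated and 259 vitamin C entries for PU.1 and 139 and 337 for Runx1. Exons and introns were not used here.

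Genes were matched to symbols (21611 of 22371) and to RefSeq spans. Genes that reached 1 RPKM in either library were compared by log2 of RPKM plus 0.5, and 2-fold was the threshold. A gene that reached 1 RPKM in only 1 library was thus counted through the library where it was higher. This holds for the shares over all genes as well. Intervals are exact (Clopper-Pearson, 95%) and cover counting error only. Named genes were all 8 members, from each of 7 gene lists up to 4 genes with the greatest log2 change and up to 2 with the highest untreated RPKM, the 3 genes of at least 100 RPKM nearest to Hoxa9, and the 5 genes of highest RPKM in each library. The methylation regions were named, with the peaks nearest to a start or strongest in a window, and other peaks were chosen after their values were seen. The members and lists were chosen with earlier results of these data known. Of the listed genes, Hoxd4 was not analysed here, and some items that the rule names are not reported here. The calculations were tested on simulated data and ran in Python 3.11.15 with pandas 2.3.3, NumPy 2.4.6 and SciPy 1.17.1. The alternatives were other pseudocounts, filters, scalings, folds, windows and peak rules.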

Additional observations from a re-analysis of the deposited data

How the results depend on the processing

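No paired analysis was possible because each group held 1 library. The log2 change of Hoxa9 was −1.05 from CPM, −1.05 with totals that leave out Hoxa9 reads and −0.998 after centring on the median of all genes, and that of Meis1 was −0.79 after centring. Members 2-fold or more lower numbered 0 after centring and 2 at 1.5-fold. At a filter of 5 RPKM Pbx3 gave no value. Listed genes past the threshold, 4 lower and 1 higher, numbered 2 lower at 5 RPKM, and 10 lower and 4 higher at 1.5-fold, where fewer or more genes could be counted. Pseudocounts of 0.1 and 1 RPKM gave −0.858 and −0.805 for Meis1, and left Hoxa9 at −1.04. The median of the other TALE genes was 0.117 at 5 RPKM.

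Stricter peaks left 11 untreated and 3 vitamin C H3K4me1 peaks, 8 and 2 PU.1 peaks and 0 untreated Runx1 peaks. Asking for an overlap of at least 50% of the peak left 16.0% of untreated H3K4me1 peaks shared, and stricter peaks 18.2%. Under stricter peaks, shared shares with vitamin C were 100.0% for PU.1 and 0.0% for Runx1. With no flank, H3K4me3 peaks with vitamin C numbered 18, untreated PU.1 peaks 10, Runx1 peaks 0 untreated and 1 with vitamin C, WGBS iMRs 7, WGBS deMRs 0 and MeDIP iMRs 0. With 10 kb, untreated Runx1 peaks numbered 1, WGBS deMRs 1 and MeDIP iMRs 0. With 100 kb, PU.1 peaks with vitamin C numbered 9, MeDIP iMRs 2 and hydroxymethylation regions 2. These counts change by construction, with less or more DNA counted or fewer peaks kept. The RNA counts give narrow intervals for Hoxa9 and Meis1, while Hoxc6, Hoxb4 and Tgif2 rest on few reads, and 1 library per condition limits every comparison.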

Other observations

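The RNA tables hold 3 further unnamed columns in RPKM, which by their values give a mean, a lowest and a highest level over parts of each gene, a reading that the files do not state. For Hoxa9 the lowest and highest were 0.964 and 3644 RPKM untreated and 0.538 and 1791 RPKM with vitamin C. The ratio of lowest to highest was 0.000265 untreated, beside a median of 0.188 over the 681 genes with at least 100 RPKM, of which 6.46% had a lower ratio. With vitamin C it was 0.000300, beside a median of 0.197 over 689 genes, of which 5.81% had a lower ratio. So some part of the Hoxa9 gene was below 1 RPKM while another was at 1791 RPKM or more in both libraries. Eef1a1 had a wide spread too, from 0.729 to 5984 RPKM untreated. Which part of Hoxa9 was low, and whether the supplied copy lacks it, was not tested.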
